A study of Mus musculus with 48 samples.

Results

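The transcripts of 7 genes of the heat shock and ubiquitin systems were followed in lactating mice kept warm or hot, among 58913 genes listed in the files. These genes were Hsf1, Hsf2 and Hsf4, which encode heat shock factors, Hsbp1, which encodes a protein that binds them, Stub1 and Bag1, which link chaperones to ubiquitin, and Ubb, a polyubiquitin gene. They were chosen by name, and each had 1 row in every file. RNA was taken from hypothalamus, pituitary and the left inguinal mammary gland of dams of the outbred ICR strain, 10 weeks old and 13 days into lactation. Controls were housed at 25 °C and heated dams at 36 °C, both at 55% relative humidity, with killing directly afterwards. The labels do not state how long the heating lasted, name no genetic modification, and call the libraries biological replicates. There were 8 control and 8 heat libraries in each of the 3 tissues, 48 in all, and the labels do not say which libraries of different tissues came from 1 dam.

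Heat shock factor 1 is present in unheated cells, held inactive by chaperones such as HSP70 and HSP90. When proteins unfold, the factor is released, forms trimers, binds heat shock elements and switches on chaperone genes. Its activation is known to work mainly through the protein and not through more of its transcript. Proteins that cannot be refolded are handed from HSP70 to the ubiquitin ligase STUB1, also called CHIP, and then to the proteasome, which uses up free ubiquitin. Ubb supplies ubiquitin as a chain of joined units that is cut apart after translation, and Rps27a supplies it fused to a ribosomal protein.

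Levels are given in FPKM, fragments divided by gene length and by a library total that the authors chose. Differences are heat minus control on the log2(FPKM + 1) scale, a scale on which changes of genes near or below 1 FPKM are understated. Adjusted p values are from limma over all genes with a mean of at least 1 FPKM in the tissue, with a threshold of 0.05. Depth, as fragments assigned to genes, was 16270621 to 22160135 in hypothalamus. It was lower in pituitary at 10891501 to 17244280, and 11585891 to 17808033 in mammary gland. Summed levels of 4 neuron markers were 200 to 263 FPKM in hypothalamus controls, and those of 6 markers of milk-secreting epithelium were 90089 to 169138 FPKM in mammary controls. In pituitary controls, 4 markers of the neurointermediate lobe summed to 2178 to 42811 FPKM, whereas 5 anterior lobe markers summed to 373 to 732 FPKM and Prl, the prolactin gene among them, was at 22.5 ± 11.0 FPKM (SD, n = 8). In heated pituitaries the same sums were 6629 to 100077 and 206 to 537 FPKM and Prl was at 6.17 ± 5.36 FPKM (SD, n = 8). Of the lobe markers 0 of 4 passed in limma, with 0 under an unadjusted p of 0.05 and 0 called by the exact Wilcoxon test or limma-voom, and of the anterior markers Prl fell; their part in the pituitary results was tested only by a score for the neurointermediate lobe, under which 0 members passed. In these bulk samples, fewer cells of a type and less RNA per cell cannot be told apart.

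None of the 7 genes passed the test for a heat difference in any tissue. In hypothalamus 0 of the 6 members tested passed the threshold, where 0.681% of all 13957 genes did. In pituitary it was 0 of 6, against 3.79% of 14095 genes. In mammary gland it was 0 of 5, against 5.31% of 12587 genes. Over these 17 comparisons the lowest adjusted p in limma was 0.442, 0 had an unadjusted p under 0.05, and an exact Wilcoxon test and limma-voom also called 0. In 0 of the 17 did the heat libraries separate from the controls, a separation that 0.437% of all genes showed in hypothalamus, 1.16% in pituitary and 0.969% in mammary gland. The 95% intervals lay within −1 and 1 on the log2 scale in 17 of 17 comparisons and within −0.5 and 0.5 in 15. The median log2 difference of the members was −0.01, 0.05 and 0.01 in hypothalamus, pituitary and mammary gland, beside medians of 0.00, 0.00 and −0.01 over all genes tested. A fit with a term for library numbers 1 to 3 against 4 to 8, sets that stand apart in some tissues, called 0 members too, where 3.48% of genes passed in hypothalamus, 12.2% in pituitary and 7.3% in mammary gland. Ubb in all 3 tissues, and Hsf2 in mammary gland, averaged under 1 FPKM and are described from a fit without that filter.

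**Figure D1:**
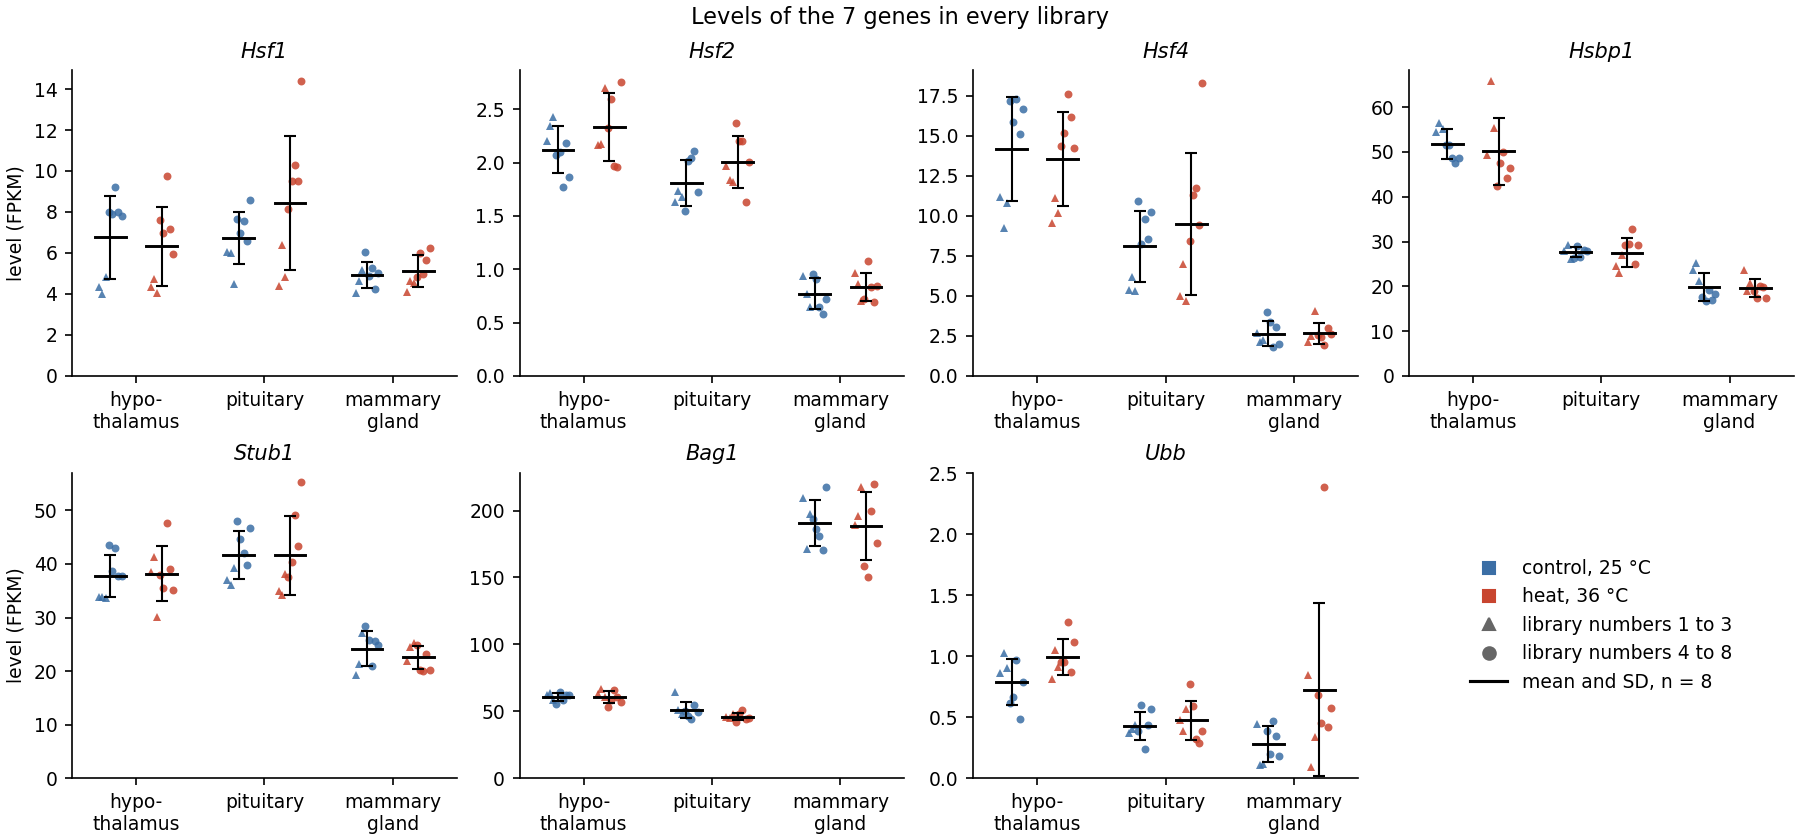
Levels in FPKM (linear axes from 0) of the 7 genes in all 48 libraries, by tissue, with controls in blue and heat in red; triangles are libraries numbered 1 to 3, circles those numbered 4 to 8, and bars the mean and SD of 8. Heat and control points overlap for every gene in every tissue, Bag1 stands highest in mammary gland on the authors' scaling, and 1 heated mammary library has 2.39 FPKM of Ubb.

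Hsf1 (ENSMUSG00000022556, chr15:76477422-76501913, plus strand, 8 exon blocks in GENCODE M21 on GRCm38) encodes the main inducer of chaperone genes. Its level in hypothalamus ran from 4.01 through a median of 7.84 to 9.21 FPKM in controls and from 4.04 through 6.48 to 9.77 FPKM in heat. In pituitary it ran from 4.50 through 6.77 to 8.57 FPKM in controls and from 4.38 through 8.82 to 14.4 FPKM in heat. In mammary gland it was narrower, 4.04 to 6.04 FPKM around 4.93 in controls and 4.10 to 6.24 FPKM around 4.90 in heat. The treatments overlapped everywhere, and the highest value, 14.4 FPKM, was that of heat pituitary replicate 8. The log2 difference was −0.06 in hypothalamus (95% interval −0.45 to 0.33, adjusted p = 0.999). It was 0.24 in pituitary (−0.14 to 0.62, adjusted p = 0.557), where it was −0.06 within library numbers 1 to 3 and 0.42 within 4 to 8. With the term for library numbers the adjusted p in pituitary was 0.179 in limma. Fitted in numbers 4 to 8 alone, Hsf1 in pituitary had the lowest adjusted p of any member under any setting, given further on. The log2 difference was 0.06 in mammary gland (−0.13 to 0.25, adjusted p = 0.753). The upper bound was thus highest in pituitary, and differences inside these intervals were not excluded with 8 libraries a group.

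Hsf4 (ENSMUSG00000033249, chr8:105269801-105275845, plus strand), whose product is best known from the developing lens, had the highest FPKM of the heat shock factors in hypothalamus. There it ran from 9.27 through 15.5 to 17.3 FPKM in controls and from 9.56 through 14.3 to 17.6 FPKM in heat. This order rests on dividing by exon length, 1753 bases for Hsf4 and 7099 for Hsf1. In fragments Hsf1 exceeded Hsf4 in each hypothalamus library, with 806 against 514 in control replicate 1. In pituitary the controls lay between 5.34 and 10.9 FPKM with a median of 8.40, and the heated libraries between 4.71 and 18.3 FPKM with a median of 8.96. The values in mammary gland were 1.78 to 4.01 FPKM around 2.45 in controls and 1.94 to 4.08 FPKM around 2.52 in heat. As for Hsf1, the treatments overlapped and the top pituitary value belonged to heat replicate 8. The log2 differences were −0.04 in hypothalamus (95% interval −0.36 to 0.28), 0.15 in pituitary (−0.31 to 0.62) and 0.02 in mammary gland (−0.26 to 0.31). None passed, with limma adjusted p of 0.999, 0.785 and 0.947.

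Hsf2 (ENSMUSG00000019878, chr10:57486385-57513135, plus strand) encodes a factor that can trimerise with HSF1 and acts in brain and germ cell development. Its level was low, 1.77 to 2.43 FPKM around 2.14 in hypothalamus controls and 1.96 to 2.76 around 2.25 in heat. In pituitary it was 1.55 to 2.10 FPKM around 1.73 in controls and 1.63 to 2.37 around 1.99 in heat. In mammary gland, where it fell under the filter, it was 0.576 to 0.958 FPKM around 0.744 in controls and 0.693 to 1.07 around 0.836 in heat, from 32 to 85 fragments per library. The treatments overlapped, with 6 of 8 heated hypothalamus libraries, 7 of 8 heated pituitary libraries and 6 of 8 heated mammary libraries above the control median. The log2 differences were 0.11 in hypothalamus (95% interval −0.03 to 0.24, adjusted p = 0.811 in limma) and 0.11 in pituitary (−0.03 to 0.25, adjusted p = 0.442), and 0.06 in mammary gland without the filter (−0.11 to 0.23). The other 2 genes of the family were near or under the limit that a count of 3 fragments sets. Hsf3 had 0 to 8 fragments and Hsf5 0 to 14 fragments in any library, and neither was tested.

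Hsbp1 (ENSMUSG00000031839, chr8:119344488-119348922, plus strand) encodes a small coiled-coil protein that binds the trimer of HSF1 and dampens its activity. Its FPKM was above that of any heat shock factor, with 47.5 to 56.4 FPKM around 51.5 in hypothalamus controls and 42.4 to 65.8 around 48.5 in heat. Pituitary held 26.1 to 29.2 FPKM around 27.9 in controls and 22.9 to 32.9 around 28.1 in heat. Mammary gland held 16.8 to 25.2 FPKM around 18.7 in controls and 17.4 to 23.7 around 19.4 in heat. The medians of the treatments lay close together in each tissue, and the controls fell within or near the heat range. The log2 differences were −0.03 (95% interval −0.20 to 0.13), 0.00 (−0.14 to 0.15) and 0.01 (−0.18 to 0.19) in the same order, all with limma adjusted p above 0.97. Per library, FPKM of Hsbp1 exceeded that of Hsf1 by 5.28 to 14.1 times in hypothalamus controls. In pituitary controls it was 3.25 to 5.80 times and in mammary controls 2.91 to 5.84 times. The size of these ratios rests on exon lengths of 1861 bases for Hsbp1 and 7099 for Hsf1. Their range in hypothalamus also depends on library numbers. Over both treatments Hsf1 was there at 4.01 to 4.81 FPKM in numbers 1 to 3 and at 5.96 to 9.77 FPKM in numbers 4 to 8.

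Genes whose products act on HSF1 were counted as a list of 13, which includes Hsbp1. In hypothalamus 0 of the 12 tested passed in limma, 3 had an unadjusted p under 0.05, and the exact Wilcoxon test and limma-voom called 0. In pituitary 2 of 13 rose and 0 fell: Ptges3, which encodes the HSP90 cochaperone p23, by 0.78 (adjusted p = 0.0038 in limma), and Crebbp, an acetyltransferase gene, by 0.27 (adjusted p = 0.0168). In mammary gland 4 of 13 rose and 0 fell. Of all genes tested 0.559% rose in hypothalamus, 2.37% in pituitary and 2.84% in mammary gland. In mammary gland Ptges3 rose by 0.84, Crebbp by 0.57, Sirt1, whose deacetylase prolongs DNA binding by HSF1, by 0.56, and Ep300, another acetyltransferase gene, by 0.54. With the term for library numbers the counts were larger and 0 calls were lost. That term also called more of all genes, in either direction. It called 3.48% in hypothalamus, 12.2% in pituitary and 7.3% in mammary gland. In hypothalamus Ptges3 rose by 0.30 (adjusted p = 0.0101 in limma), 1 of 12, with 8 of 8 heated libraries above the control median. In pituitary Ep300 was added at 0.25 (adjusted p = 0.0154), making 3 of 13. In mammary gland 2 genes also fell under that term: Ccar2, whose product inhibits SIRT1, fell by 0.32 (adjusted p = 0.033) and Hdac6, a deacetylase gene, fell by 0.30 (adjusted p = 0.0467), so that 4 rose and 2 fell. The median log2 difference of the list was 0.04, 0.04 and 0.01 in hypothalamus, pituitary and mammary gland. Hsbp1l1, the paralog of Hsbp1, had a mean of 0.508 ± 0.190 FPKM in hypothalamus controls and 5.04 ± 1.62 in pituitary controls (SD, n = 8) and did not pass in the tissues where it was tested.

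By comparison, most genes of a list of 17 HSF1 targets passed as higher in each tissue. The list was chosen with earlier results of these data known, so its counts are a description. Whether HSF1 drove these rises was not tested. Of 17 target genes 12 rose in hypothalamus, 16 in pituitary and 15 in mammary gland, and 0 fell, beside the shares of all genes that rose given above. With the term for library numbers it was 15, 17 and 15 of 17, where 3.48%, 12.2% and 7.3% of all genes passed in either direction. Hspa1b (ENSMUSG00000090877), an inducible HSP70 gene, had a control median of 4.56 FPKM and a heat median of 39.2 in hypothalamus. Its medians were 3.22 and 257 FPKM in pituitary and 6.70 and 429 in mammary gland, and in no tissue did the treatments overlap. The log2 differences of Hspa1b were 2.71, 5.61 and 5.50, so the members' differences, at most 0.24 in size among those tested, were small beside it. Hspa1a, which is nearly identical to Hspa1b so that fragments may be divided between them, and the small heat shock protein gene Hspb1 came next in hypothalamus and pituitary, and Hspa1a and the HSP110 gene Hsph1 in mammary gland.

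**Figure D2:**
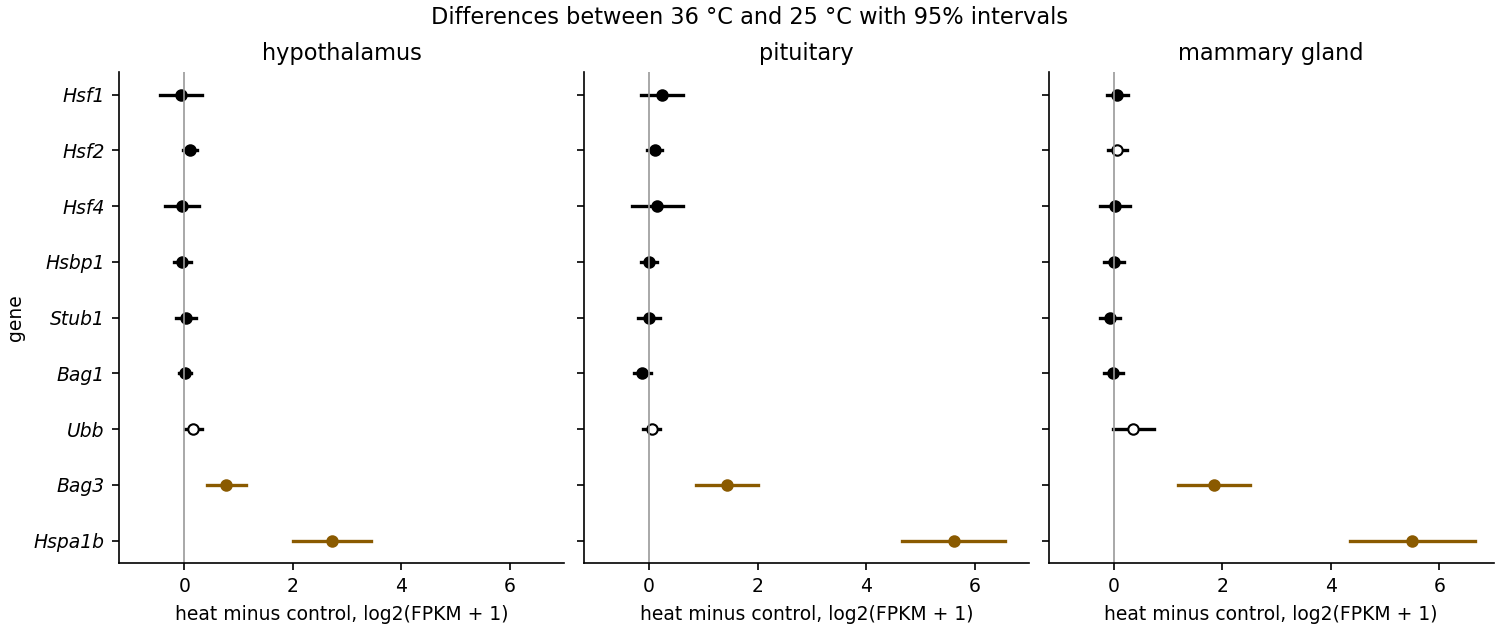
Heat minus control differences on the log2(FPKM + 1) scale (linear x axis) with 95% intervals from limma, 8 against 8 libraries per tissue, for the 7 genes in black and for Bag3 and Hspa1b in brown; open circles come from the fit without the filter on low levels. The intervals of the 7 genes include 0, except that of Ubb in hypothalamus at 0.01 to 0.32, whereas Hspa1b lies at 2.71, 5.61 and 5.50 in hypothalamus, pituitary and mammary gland.

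Promoters are shown to set the letters of a heat shock element in a gene that rose beside members that did not pass. RefSeq windows on GRCm38.p6 were matched for 5 of the 7 members, not for Hsf1 and Hsf4, and the 250 bases upstream of each start were searched on both strands for GAANNTTC, for TTCNNGAA and for the heat shock element trimer, in which these overlap. GAANNTTC was held by 6.69% of all 32851 windows, TTCNNGAA by 7.17% and the trimer by 0.466%. Hspa1b held GAANNTTC beginning 104 bases before its start. Among members, Stub1 held it beginning 123 bases before its RefSeq start. That stretch lies inside the Stub1 gene of GENCODE M21, whose minus-strand start is at 25833404. The windows of Hspa1b and of the first Ubb start instead end where the GENCODE gene begins. None of these letters occurred in the windows of Ubb (both starts), Bag1, Hsbp1 and Hsf2. The 2 windows of 250 bases are those of Hspa1b (chr17:34959239-34959488, minus strand) and of the first Ubb start (chr11:62550921-62551170, plus strand), and the Stub1 stretch is 28 bases long (chr17:25833025-25833052, minus strand), with the matched letters in capitals.
Hspa1b: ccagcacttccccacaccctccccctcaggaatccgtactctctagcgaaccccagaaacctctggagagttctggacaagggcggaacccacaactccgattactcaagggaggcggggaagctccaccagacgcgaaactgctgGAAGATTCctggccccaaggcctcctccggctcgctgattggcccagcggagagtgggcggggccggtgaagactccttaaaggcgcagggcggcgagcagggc
Stub1: gagcgcggcgGAAGCTTCtcagagctaa
Ubb: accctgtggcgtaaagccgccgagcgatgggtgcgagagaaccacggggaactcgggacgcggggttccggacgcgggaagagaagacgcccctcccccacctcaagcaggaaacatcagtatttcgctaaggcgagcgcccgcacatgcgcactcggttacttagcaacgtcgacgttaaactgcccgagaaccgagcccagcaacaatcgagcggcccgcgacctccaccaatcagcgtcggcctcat
Both Hspa1b and Stub1 hold the pattern before a RefSeq start, and their log2 differences in pituitary were 5.61 and 0.00. A match of letters is a description and does not show binding.

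Heated libraries differed widely in Hspa1b, from 30.6 to 616 FPKM in pituitary, so each member was set against it among the 8 heated libraries of each tissue, giving 21 relations. For Hsf1 and Hsf4 in hypothalamus and pituitary the libraries fell into separate sets, described further on, so no pooled r is given for these 4 relations, and sets of 3 and 5 heated libraries are too small for an r of their own. Before adjustment 1 of the 4, Hsf1 in hypothalamus, had an exact permutation p of 0.0446 over the pooled libraries, and its r was 0.49 once the mean of each set was subtracted. In the other 17 Pearson's r ran from −0.67 to 0.57 and Spearman's rho from −0.52 to 0.60, and the smallest exact permutation p, 2-sided, was 0.0739 (n = 8). With Benjamini-Hochberg adjustment over the 21 relations the smallest exact permutation p was 0.599 for r and 0.764 for rho. When the 2 libraries farthest from the median of Hspa1b were left out, r of these 17 ran from −0.71 to 0.58. With the mean of each set subtracted it ran from −0.76 to 0.52, both for Stub1, in pituitary and hypothalamus. The pooled r of Stub1 in pituitary was −0.07, so pooled values also depend on the sets. The r with set means subtracted was not tested. None of the 21 relations passed after adjustment.

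Stub1 (ENSMUSG00000039615, chr17:25830505-25833404, minus strand) encodes the ligase that adds ubiquitin to clients held by HSP70 and HSP90. It was among the more abundant members, at 33.6 to 43.5 FPKM around 37.8 in hypothalamus controls and 30.0 to 47.6 around 38.3 in heat. The pituitary values were 36.0 to 47.96 FPKM around 41.0 in controls and 34.1 to 55.3 around 39.2 in heat. The mammary values were 19.3 to 28.5 FPKM around 25.3 in controls and 20.1 to 25.3 around 22.6 in heat. Controls and heated libraries overlapped in each tissue, although only 1 of 8 heated mammary libraries lay above the control median. The log2 differences were 0.03 (95% interval −0.15 to 0.21), 0.00 (−0.20 to 0.20) and −0.08 (−0.26 to 0.11) in hypothalamus, pituitary and mammary gland. Of the exon bases of Stub1, 42.3% are also covered by Jmjd8 on the opposite strand or by Mir3082, and the sources used here do not state whether counting used strand. Jmjd8 itself had log2 differences of −0.03, −0.01 and −0.12 and passed in no tissue.

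Some partners of the ligase rose. Of the 6 genes listed, Stub1 included, 3 rose in pituitary and 3 in mammary gland and 0 fell in either. In hypothalamus 0 passed in limma, 3 had an unadjusted p under 0.05, the exact Wilcoxon test called 1 and limma-voom 0. The share of all genes that rose was 0.559% in hypothalamus, 2.37% in pituitary and 2.84% in mammary gland. With the term for library numbers 3 of 6 also rose in hypothalamus, Hspa8 by 0.25 (adjusted p = 0.0094 in limma), Hsp90ab1 by 0.25 (0.0171) and St13 by 0.27 (0.0278). The counts in the other tissues stayed at 3. Under that term 3.48% of all genes passed in hypothalamus, 12.2% in pituitary and 7.3% in mammary gland, in either direction. Hspa8, the constitutive HSP70 gene and also among the HSF1 targets above, rose from 73.2 ± 11.0 to 185 ± 58.5 FPKM in pituitary and from 91.3 ± 36.3 to 394 ± 202 in mammary gland (SD, n = 8). Those are log2 changes of 1.29 and 2.04. Within library numbers 1 to 3 they were 0.95 in pituitary and 1.39 in mammary gland, and within 4 to 8 they were 1.499 and 2.42. Hsp90ab1, which encodes HSP90 beta, rose by 1.10 and 1.76. St13, which encodes the HSP70-interacting protein HIP, rose by 0.68 in pituitary and by 0.52 in mammary gland, where the difference was 0.03 within numbers 1 to 3 and 0.81 within 4 to 8. Hspbp1, whose product is a nucleotide exchange factor of HSP70 that inhibits STUB1, had log2 differences of −0.02, 0.11 and 0.00, and the deubiquitinase gene Atxn3 had 0.01, 0.13 and 0.05, none of which passed. The median of the list was 0.14, 0.40 and 0.29 in hypothalamus, pituitary and mammary gland.

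Bag1 (ENSMUSG00000028416, chr4:40936398-40948294, minus strand) encodes a nucleotide exchange factor that carries a ubiquitin-like domain and brings HSP70 clients to the proteasome. In mammary gland it was the most abundant member by far, at 171 to 218 FPKM around 190 in controls and 150 to 220 around 192 in heat. Hypothalamus held 55.6 to 64.4 FPKM around 62.1 in controls and 52.8 to 66.5 around 60.7 in heat. Pituitary held 44.5 to 64.3 FPKM around 49.8 in controls and 41.8 to 51.0 around 45.3 in heat. Its spread was small, so its intervals were the tightest in hypothalamus, −0.10 to 0.12 around a log2 difference of 0.01. The difference was −0.01 in mammary gland (−0.18 to 0.16). In pituitary it was −0.12 (−0.28 to 0.04, adjusted p = 0.443 in limma), with 1 of 8 heated libraries above the control median, −0.20 within library numbers 1 to 3 and −0.08 within 4 to 8.

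Among the 6 genes of the BAG family 1 rose in pituitary and 1 in mammary gland, in both cases Bag3, which encodes the HSF1-driven member that routes clients to autophagy. Of all genes tested 0.559% rose in hypothalamus, 2.37% in pituitary and 2.84% in mammary gland. Bag3 went from 13.2 ± 1.28 to 43.1 ± 27.5 FPKM in pituitary and from 22.0 ± 3.91 to 93.2 ± 50.9 in mammary gland (SD, n = 8). Its log2 differences were 1.44 (adjusted p = 0.00629 in limma) and 1.85 (adjusted p = 0.00324), in that order. Libraries numbered 1 to 3 gave 0.75 in pituitary and 1.22 in mammary gland, and those numbered 4 to 8 gave 1.85 and 2.22. In hypothalamus Bag3 had a log2 difference of 0.78 with adjusted p = 0.0504, so 0 of 6 passed there in limma, 1 had an unadjusted p under 0.05, and the exact Wilcoxon test and limma-voom called 0. With the term for library numbers Bag3 passed in hypothalamus (adjusted p = 0.0061 in limma), where 3.48% of all genes did. Bag5, a further HSP70 exchange factor gene, had −0.21 in pituitary under that term, a fall (adjusted p = 0.0351 in limma), where 12.2% of all genes passed. Without that term the other 4 genes did not pass in any tissue. Bag2, whose product restrains STUB1, had 0.24, −0.15 and −0.38 in hypothalamus, pituitary and mammary gland, with 0 of 8 heated mammary libraries above the control median. Bag4 had 0.02, −0.13 and −0.02, Bag5 0.02, −0.21 and −0.21, and Bag6 −0.06, 0.18 and −0.08. The test of whether the heat difference of Bag3 varied between tissues gave adjusted p = 0.277.

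Ubb (ENSMUSG00000019505, chr11:62551171-62553213, plus strand) was listed at low levels in all libraries. In hypothalamus it ran from 0.485 through 0.830 to 1.03 FPKM in controls and from 0.814 through 0.956 to 1.28 FPKM in heat, on 20 to 50 fragments per library. In pituitary it ran from 0.239 through 0.418 to 0.600 FPKM in controls and from 0.289 through 0.434 to 0.768 in heat, on 10 to 26 fragments. In mammary gland it ran from 0.109 through 0.274 to 0.466 FPKM in controls and from 0.0903 through 0.514 to 2.39 in heat, on 1 to 20 fragments. There 4 control libraries and 1 heat library lay below the level that 3 fragments give, a limit that covers counting error only. Heat libraries lay above the control median in 7 of 8 cases in hypothalamus and 7 of 8 in mammary gland, yet the ranges overlapped. Without the filter the log2 difference was 0.17 in hypothalamus (95% interval 0.01 to 0.32, unadjusted p = 0.035 and adjusted p = 0.697 in limma). It was 0.05 in pituitary (−0.11 to 0.20) and 0.36 in mammary gland (−0.01 to 0.73, adjusted p = 0.404). On recovered fragments limma-voom gave 0.37, 0.10 and 0.84, with adjusted p of 0.503, 0.878 and 0.350.

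Ubb is built of near-identical repeats that other genes also carry. Its coding sequence of 918 bases holds 4 copies of the 228-base ubiquitin unit, and repeats 2, 3 and 4 matched repeat 1 at 97.8%, 99.1% and 95.6% of bases. The closest stretch of Gm1821, a processed pseudogene on chromosome 14, matched repeat 1 at 97.8%. The first 60 bases of each, read from GENCODE M21 transcripts, are shown with capitals at bases that differ from Ubb repeat 1.
Ubb repeat 1: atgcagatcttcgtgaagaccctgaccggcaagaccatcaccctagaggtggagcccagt
Ubb repeat 2: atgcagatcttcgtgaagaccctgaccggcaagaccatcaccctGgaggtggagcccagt
Ubb repeat 3: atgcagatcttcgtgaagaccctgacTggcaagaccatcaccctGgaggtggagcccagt
Ubb repeat 4: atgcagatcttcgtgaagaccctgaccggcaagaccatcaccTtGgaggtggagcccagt
Gm1821: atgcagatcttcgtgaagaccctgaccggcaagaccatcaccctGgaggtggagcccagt
In this stretch Gm1821 and Ubb repeat 2 are identical. Of all 50-base windows of Ubb transcripts, 48.1% occur in 5 other annotated genes and 52.5% are not unique, and with 100-base windows the shares are 43.6% and 47.8%. The sources used here do not state how reads aligning to several places were counted. Gm1821, which shares the most windows, was listed at 0 in 48 of 48 libraries. Gm8797, which shares the next most, had a median of 2.25 FPKM over all libraries, from 0 to 17.1, and passed in no tissue. Whether shared sequence lowered the listed level of Ubb was not tested.

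Rps27a (ENSMUSG00000020460), which encodes ubiquitin joined to a protein of the small ribosomal subunit, was far more abundant than the listed level of Ubb and spread widely. It ran from 24.1 through 38.8 to 76.0 FPKM in hypothalamus controls and from 15.4 through 31.9 to 85.4 in heat. Pituitary libraries lay between 47.4 and 153 FPKM around 97.9 in controls and between 53.2 and 154 around 92.3 in heat. Mammary libraries lay between 38.7 and 116 FPKM around 84.9 in controls and between 53.5 and 98.3 around 74.1 in heat. The treatments overlapped throughout. Of the 50-base windows of Rps27a, 26.3% occur in 15 other annotated genes, and 8.11% of its exon bases are covered by Clhc1 on the opposite strand. The log2 differences were −0.19 (95% interval −0.87 to 0.49), 0.01 (−0.52 to 0.54) and −0.03 (−0.47 to 0.42) in the same order, and none passed in limma, with an unadjusted p of at least 0.555, or in the exact Wilcoxon test or limma-voom.

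In mammary gland 8 lymphocyte markers summed to 3.70 to 69.8 FPKM in controls and 3.59 to 104 in heat, and the 7 tested had a median log2 difference of 1.13. Of these markers 0 passed in limma, 0 had an unadjusted p under 0.05, and the exact Wilcoxon test and limma-voom called 0. With their score in the fit 0 members passed in mammary gland.

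Of 10 genes for activating and conjugating enzymes and chain-elongating ligases, 9 were tested in each tissue. One rose in pituitary, Ube2d1, a conjugating enzyme that works with STUB1, by 0.32 (adjusted p = 0.0198 in limma). None passed in hypothalamus or mammary gland, where 0 and 1 had an unadjusted p under 0.05, limma-voom called 0 and 0, and the exact Wilcoxon test called 0 and 1. Of 15 genes for ubiquitin receptors and deubiquitinases 0 passed in limma in any tissue. Of all genes tested 0.681% passed in hypothalamus, 3.79% in pituitary and 5.31% in mammary gland, so counts near 0 in lists this small lie near these shares. Receptor and deubiquitinase genes with an unadjusted p under 0.05 in limma numbered 0 in hypothalamus, 3 in pituitary and 4 in mammary gland. The exact Wilcoxon test called 1 of them in mammary gland and limma-voom called 0. With the term for library numbers Ube2d3, another conjugating enzyme gene, rose in hypothalamus by 0.17 (adjusted p = 0.0102 in limma), where 3.48% of all genes passed. The medians of both lists were within 0.04 log2 units of 0 in every tissue.

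Levels of the members between tissues are given in FPKM on the scaling of the authors. Their log2 differences come after a further median-of-ratios rescaling of the control libraries across tissues. Library totals of the authors were 1.26 to 1.37 times the fragments assigned to genes in hypothalamus controls. The same quotient was 1.57 to 1.73 in pituitary controls but 0.358 to 0.572 in mammary controls, so orders that involve mammary gland depend on which total is used. At 25 °C Bag1 was highest in mammary gland, 191 ± 17.0 FPKM, then hypothalamus, 60.7 ± 3.06, then pituitary, 51.0 ± 6.23 (SD, n = 8). Each step passed in limma, the last with a log2 difference of −0.27 and adjusted p = 0.00121. Scaled instead per fragment assigned to genes, Bag1 was at 79.6 ± 5.08 in hypothalamus, 85.6 ± 12.4 in pituitary and 85.8 ± 13.7 in mammary gland (SD, n = 8). On that scale 0 of its 3 differences passed in limma: 0.096 for mammary gland against hypothalamus (adjusted p = 0.320), 0.0011 against pituitary (0.992) and 0.095 for pituitary against hypothalamus (0.353). The change of scale moved the median log2 difference of all genes from −0.11 to −1.19 for mammary gland against hypothalamus, from −0.07 to −1.42 against pituitary, and from −0.05 to 0.20 for pituitary against hypothalamus. Hsbp1 fell in the order hypothalamus, pituitary, mammary gland, with 51.7 ± 3.35, 27.6 ± 1.17 and 19.9 ± 3.18 FPKM (SD, n = 8), and both steps passed. Hsf4 took the same order with 14.2 ± 3.23, 8.09 ± 2.22 and 2.65 ± 0.778 FPKM, and so did Hsf2 with 2.12 ± 0.221, 1.81 ± 0.212 and 0.771 ± 0.147 (SD, n = 8). The step of Hsf2 from hypothalamus to pituitary was −0.16 with adjusted p = 0.0267, and it did not pass with a pseudocount of 0.1, nor per assigned fragment, where its sign turned (0.093, adjusted p = 0.180).

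Hsf1 was 6.76 ± 2.02 FPKM in hypothalamus, 6.74 ± 1.26 in pituitary and 4.91 ± 0.630 in mammary gland (SD, n = 8). Its first pair did not differ beyond the spread (log2 difference 0.02, adjusted p = 0.928 in limma), while mammary gland was lower than each, by −0.35 and −0.36. For Stub1, pituitary at 41.7 ± 4.43 and hypothalamus at 37.7 ± 3.96 FPKM (SD, n = 8) did not pass either (0.13, adjusted p = 0.166), and mammary gland was lower at 24.2 ± 3.29. Per assigned fragment, pituitary exceeded hypothalamus in Stub1 by 0.49 (adjusted p = 0.000414), and Hsf1, Hsf2, Hsf4, Hsbp1 and Stub1 stayed lower in mammary gland than in either other tissue, with log2 differences of −1.48 to −3.14, beside the median shifts of all genes given above. Of the 6 members tested, 4 passed between pituitary and hypothalamus and 6 in each comparison with mammary gland, where 73.1%, 83.9% (mammary gland against hypothalamus) and 80.7% (against pituitary) of 14787 genes passed. The ratio of the factors in FPKM, whose size rests on the exon lengths given above, also differed by tissue. Hsf4 exceeded Hsf1 by a median of 2.14 times in hypothalamus controls and 1.19 times in pituitary controls, and was 0.556 times Hsf1 in mammary controls. With heat these medians were 2.24, 1.12 and 0.521. The interaction test over 48 libraries asked whether heat differences varied between tissues, and 0 of 6 members passed in limma where 2.12% of 14884 genes did, with adjusted p from 0.830 to 0.996. Between pairs of tissues 0 of 6 members passed for mammary gland against hypothalamus (1.53% of genes), mammary gland against pituitary (2.23%) and pituitary against hypothalamus (0.155%). In these tests 0 members had an unadjusted p under 0.05, and the lowest was 0.190. The fit behind them held no term for library numbers and treated libraries of different tissues as independent.

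In hypothalamus and pituitary, Hsf1 and Hsf4 separated by library number and not by treatment. In hypothalamus Hsf1 was 4.01 to 4.81 FPKM in the 6 libraries numbered 1 to 3 and 5.96 to 9.77 in the 10 numbered 4 to 8. Hsf4 was 9.27 to 11.2 and 14.2 to 17.6 FPKM in the same libraries. In pituitary Hsf1 was 4.38 to 6.38 and 6.57 to 14.4, and Hsf4 4.71 to 6.98 and 8.27 to 18.3. Both sets held controls and heated libraries, and they did not overlap. This was so for 2 of the 6 members in hypothalamus and 2 of 6 in pituitary, where 24.5% and 15.4% of all genes tested separated in this way. In mammary gland 0 of 5 members and 1.04% of genes did. The labels do not say what the numbers stand for, and what the sets have in common was not tested.

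**Figure D3:**
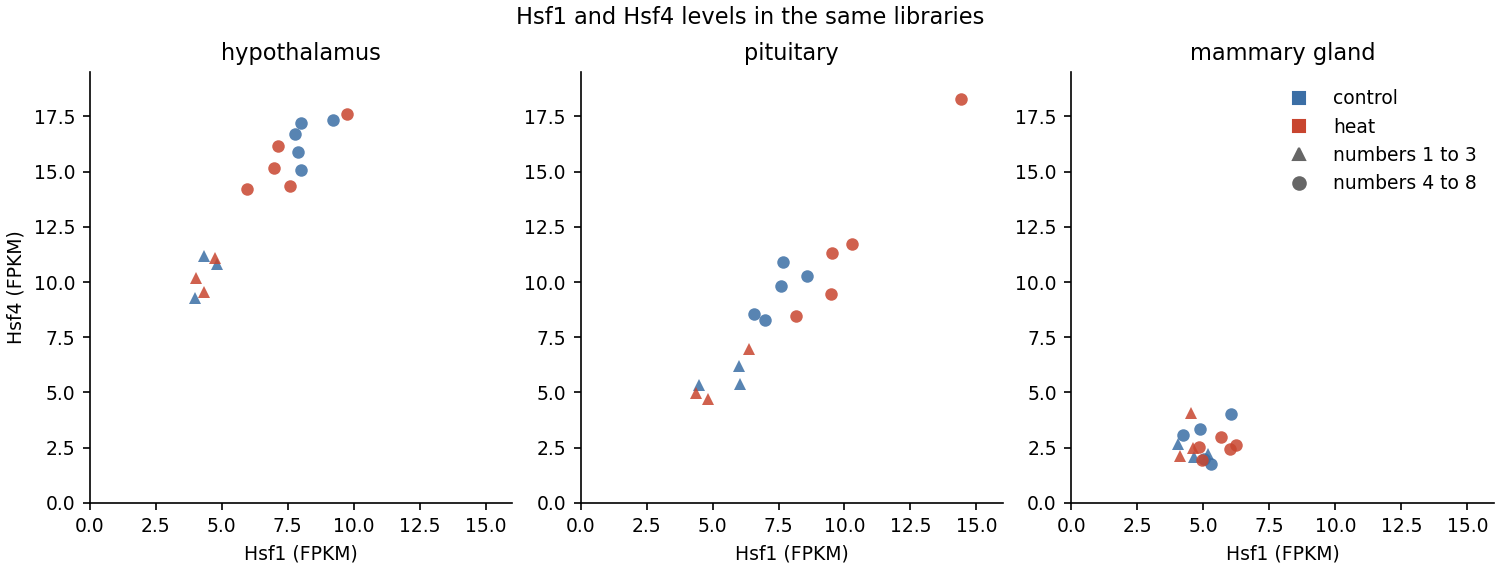
Hsf4 against Hsf1 in FPKM (linear axes from 0, the same in each panel), 1 point per library, 16 per tissue, controls in blue and heat in red, triangles for numbers 1 to 3 and circles for 4 to 8. In hypothalamus and pituitary the triangles lie below and left of the circles for both treatments, and in mammary gland the sets mix.

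Which genes varied most like each member was read from 48 libraries after subtracting the mean of each of the 6 groups, over 8645 protein-coding genes tested in all 3 tissues. Hsf1 was closest to Scrib (Pearson's r 0.948), Hps4 (0.947) and Sppl2b (0.943), and its r with Hsf4 was 0.824. With the mean of each set of numbers also subtracted these were 0.858, 0.787, 0.850 and 0.572. Hsf4 was closest to Ppox (0.916), Tpra1 (0.898) and Dxo (0.898), and with set means subtracted to 0.7775, 0.704 and 0.747 in that order. Hsbp1 was closest to Chmp2a (0.854), Emc4 (0.837) and Polr2g (0.807), and its r with Hsf1 was −0.206. With set means subtracted these were 0.706, 0.679, 0.736 and −0.029. Stub1 was closest to Hdac5 (0.791), Adck5 (0.787) and Tbc1d17 (0.767), with 0.627 to Hsf1. The set-subtracted values were 0.677, 0.655, 0.689 and 0.508. Bag1 had weaker neighbours, Prdx6 (0.633), Marc2 (0.626) and Copz1 (0.624), at 0.604, 0.642 and 0.604 with set means subtracted. These values describe libraries that share depth, preparation and number, and Hsf2 and Ubb were left out because they were not tested in all tissues.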

How the data were processed

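RNA of 48 libraries was sequenced by the authors, and samples were grouped by title, 8 per treatment and tissue. Each file the authors deposited lists FPKM for all genes of 1 library; HISAT2 2.0.5, featureCounts 1.5.0-p3, DESeq2 1.16.1 and the build mm9 are named per the submitters' processing notes. Treatment of reads with several alignments and of strand is not given in the sources used here. Exon lengths of GENCODE M21 turned 94.7 to 97.0% of values under 50 fragments into whole numbers (tolerance 0.02), which gave depths and floors. For a gene 1 kb long the level worth 3 fragments was 0.105 to 0.143 FPKM (hypothalamus), 0.110 to 0.167 (pituitary) and 0.322 to 0.600 (mammary gland), which covers counting error only.

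Within tissues, each library was rescaled by a median-of-ratios factor (0.970 to 1.02). Genes averaging under 1 FPKM were dropped, and limma 3.58.1 in R 4.3.3 modelled log2(FPKM + 1) (empirical Bayes with trend, 2-sided, Benjamini-Hochberg over all genes, threshold 0.05). Fits over all 48 libraries gave the interaction, and fits over control libraries the tissue levels. In their main setting both were rescaled by median-of-ratios factors taken across tissues. Replicates are biological per the labels, with no further detail. The settings varied were no rescaling, quantile normalization, a pseudocount of 0.1, no filter, a filter of 5, the replicate number as a block, a term for library numbers 1 to 3 against 4 to 8, each set alone, all 48 libraries in 1 fit, an exact Wilcoxon test, marker scores, each library left out, and, added after the data were seen, limma-voom on recovered fragments and tissue levels per fragment assigned to genes. The fits were tested on simulated data. Other steps used Python 3.11.15 (scipy 1.17.1, pandas 2.3.3, numpy 2.4.6) and figures matplotlib 3.10.9.

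Members and gene lists were chosen with earlier results of these data known. The text names all 7 members, the 3 genes past the threshold with the largest change per list and tissue, all genes of lists of 6 or fewer, the 3 genes most like each member, and Hspa1b; Ep300, the fourth gene of its list, Ccar2, Hdac6, Ube2d3, Jmjd8, Gm1821, Gm8797, Mir3082, Hsbp1l1 and Prl were named outside this rule after their values were seen. Symbols were found for 53274 of 58913 genes. Some genes of the ubiquitin system are not reported here.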

Additional observations from a re-analysis of the deposited data

Results flagged for a closer look

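Ubb in heat mammary gland replicate 6 was at 2.39 FPKM (20 fragments), and the next highest of the 8 heated mammary libraries was at 0.848. This gap to the nearest library, 0.67 of the group's range, was large for a group of 8. It was the 1 such library among 42 groups examined for the 7 members, where chance gives about 1 in 20 groups.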

How the results depend on the processing

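The number of genes past the threshold depended on the settings, while no member passed under any of them, the lowest adjusted p being 0.0542 in limma for Hsf1 in pituitary with numbers 4 to 8 alone. In hypothalamus 95 became 61 without a filter, 57 with a filter of 5, 281 with the replicate block, 486 with a term for library numbers 1 to 3 against 4 to 8, 422 in numbers 4 to 8 alone, 0 in numbers 1 to 3 alone and 19 with all 48 libraries in 1 fit; with 1 library left out it ran from 46 to 126. In pituitary 534 became 214 with a filter of 5, 1213 with the replicate block, 1721 with the number term, 1391 in numbers 4 to 8 and 0 in numbers 1 to 3, and with 1 library left out it ran from 334 to 904. In mammary gland 668 became 411 without a filter, 364 with a filter of 5, 361 in numbers 4 to 8, 0 in numbers 1 to 3, 275 with the lymphocyte score and 2042 with all 48 libraries, and with 1 library left out it ran from 415 to 762. Numbers 1 to 3 alone leave 3 libraries a group.

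Signs of members turned under some settings, also for Hsf1 and Hsf4 in pituitary, where the differences reported were 0.24 and 0.15. In numbers 1 to 3, rescaled and fitted alone, the log2 difference was 0.0077 for Hsf1 and 0.042 for Hsbp1 in hypothalamus, −0.071 for Hsf1, −0.027 for Hsf4, −0.15 for Hsbp1 and −0.058 for Stub1 in pituitary, and −0.050 for Hsf1, −0.14 for Hsbp1, 0.090 for Stub1 and 0.064 for Bag1 in mammary gland. In numbers 4 to 8 it was −0.030 for Stub1 and −0.026 for Bag1 in hypothalamus and −0.088 for Hsf4 in mammary gland. With the FPKM as deposited, and the same with all 48 libraries in 1 fit, it was −0.0077 for Bag1 in hypothalamus, −0.0136 for Hsbp1 and −0.0134 for Stub1 in pituitary and −0.0091 for Hsbp1 in mammary gland. Quantile normalization gave −0.052 for Hsbp1 and −0.049 for Stub1 in pituitary and −0.024 for Hsf4 in mammary gland. The neurointermediate lobe score gave −0.0060 for Hsf4 and −0.028 for Stub1, and leaving out pituitary control replicate 1 and heat replicate 3 gave −0.0069 for Stub1. The lymphocyte score gave −0.0015 for Hsf1 and 0.054 for Bag1. The cause of these turns was not tested. With 1 library left out, differences in hypothalamus ran from −0.15 to 0.0086 for Hsf1, −0.12 to 0.023 for Hsf4, −0.016 to 0.078 for Stub1 and −0.0065 to 0.038 for Bag1. In pituitary they ran from −0.034 to 0.038 for Hsbp1 and −0.054 to 0.041 for Stub1, and in mammary gland from −0.044 to 0.095 for Hsf4, −0.029 to 0.057 for Hsbp1 and −0.038 to 0.031 for Bag1. limma-voom gave larger values for Ubb, 0.37 in hypothalamus and 0.84 in mammary gland. Its scale adds a small offset to each count in place of 1 FPKM, and the mammary value includes heat replicate 6 with 20 fragments. The step of Hsf2 from hypothalamus to pituitary lost its call with a pseudocount of 0.1 (−0.23, adjusted p = 0.0529 in limma), and that of Stub1 gained one with the replicate block (0.13, adjusted p = 0.0495). Tissue levels scaled per fragment assigned to genes, a choice made after seeing the data, turned the step from hypothalamus to pituitary to 0.093 for Hsf2 and 0.095 for Bag1, ended the calls of Bag1 in mammary gland against hypothalamus (0.096) and against pituitary (0.0011), and gave Stub1 a call between pituitary and hypothalamus (0.49).

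Whether library numbers pair the samples is not stated in the labels. Deviations of same-numbered control and heat libraries correlated at 0.07 to 0.70 (hypothalamus), −0.02 to 0.50 (pituitary) and −0.10 to 0.34 (mammary gland). They exceeded 0.1 in 7, 7 and 3 of 8 pairs, and 2, 1 and 2 of 8 libraries correlated best with their own number. Same-numbered libraries also share a set of numbers, so these values cannot settle whether numbers pair samples. Depth limits Ubb most, with 1 to 20 fragments per mammary library.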
